A study of Mus musculus with 2 samples.

Results

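The genes described here encode the contractile machinery of striated muscle: the thin and thick filaments of the sarcomere, its Z-disc, the proteins that couple membrane excitation to calcium release, and a few factors of sarcomere assembly and energy supply. They were a list of 45 gene symbols, and all 45 were present in both deposited tables, among 22096 symbols in all. They were compared between ScxGFP-positive cells and ScxGFP-negative cells sorted by flow cytometry from E13.5 mouse forelimbs, the embryos having a mixed strain background. In this reporter, regulatory sequence of the tendon gene *Scx* drives a green fluorescent protein, so the positive gate holds cells in which that sequence is or was recently active, and the negative gate holds all other limb cells. Each population gave 1 library from 6 pooled forelimbs (3 pairs), so there were no replicates, no test was possible, and each difference describes these 2 libraries. In such pools, fewer muscle cells and less muscle RNA per cell cannot be told apart. Levels are given in FPKM as deposited, a fragment count scaled by transcript length and by library depth, added up over all transcripts listed for a gene.

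A sarcomere is built from thin filaments of actin, wrapped by tropomyosin and the troponin complex, that slide along thick filaments of myosin. Depolarisation of the muscle membrane is sensed by a voltage-gated calcium channel that opens the ryanodine receptor of the sarcoplasmic reticulum, and calcium binding to troponin C then moves troponin I and tropomyosin off the myosin-binding sites of actin. Limb muscle forms from migrating myoblasts, and its fibres at first use embryonic and cardiac forms of these proteins, which adult slow and fast forms later replace.

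The gene behind the sort, *Scx*, stood at 134 FPKM in positive cells, against 1.69 in negative cells. Deposited coverage multiplied by transcript length gave 0.687 gigabases of sequence on transcripts for positive cells, against 0.875 for negative cells. Myoblast and myotube regulators were present in both: *Myog* stood at 5.73 FPKM in positive cells against 0.969 in negative cells, *Tmem8c* (the fusion protein myomaker) at 6.71 in positive and 0.737 in negative cells, and 10 of 12 genes of the myogenic list were higher in positive cells. The only lower one was *Pax3*, the regulator of migrating muscle progenitors, at 0.123 FPKM in positive cells, against 0.829 in negative cells. Their summed level was 26.9 FPKM in positive cells against 4.94 in negative cells, and the late regulator *Myf6* was listed at 0 in both. Heart muscle markers were low, with sums of 2.34 FPKM in positive cells against 2.28 in negative cells over 10 genes. Of these, *Myl2*, *Nppb* and *Nkx2-5* were listed at 0 in both libraries, and *Tnni3* (0.947 in positive cells against 1.47 in negative cells) and *Pln* (0.730 in positive and 0.430 in negative cells) were the most abundant. All 7 smooth muscle genes were higher in positive cells by FPKM. *Acta2* stood at 19.9 FPKM in positive cells against 2.54 in negative cells, and *Smtn* at 5.85 in positive and 5.41 in negative cells. The smooth muscle myosin gene *Myh11*, named after its value was seen, stood at 0.0939 in positive and 0.0232 in negative cells. Markers of other cell types were set beside these: 7 tendon genes summed to 266 FPKM in positive cells against 15.3 in negative cells, and 6 red blood cell genes summed to 168 in positive and 8219 in negative cells. All listed genes of white blood cells (5), endothelium (5), epidermis (4) and Schwann cells (4) were lower in positive cells. The 4 cartilage genes summed to 75.3 FPKM in positive cells against 47.9 in negative cells, mostly *Col2a1* (68.1 in positive and 40.4 in negative cells). Of the 4, 3 were higher in positive cells and 1, *Col9a1*, was lower (4.90 in positive and 6.89 in negative cells). The part of this difference in cell makeup in the values below was not tested.

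Nearly the whole list stood higher in ScxGFP-positive cells. By FPKM alone, 42 of the 45 genes were higher there and 3 were lower, *Tpm3*, *Myl3* and *Unc45b*; over all genes above 0 in either library, 32.6% were higher. With the libraries rescaled to a median ratio of 1, or to equal sums (TPM), 43 were higher, against 49.1% and 57.8% of all genes, and *Unc45b* changed side. The median FPKM ratio, positive over negative, was 4.71 for the 42 members above 0 in both libraries (quartiles 1.92 and 7.23), and 0.810 for the 16268 such genes of the whole table (quartiles 0.594 and 1.10). Most members were at low levels: the number with at least 1 FPKM was 25 in positive cells, against 9 in negative cells, and 7 in positive and 4 in negative cells had at least 5.

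**Figure D1:**
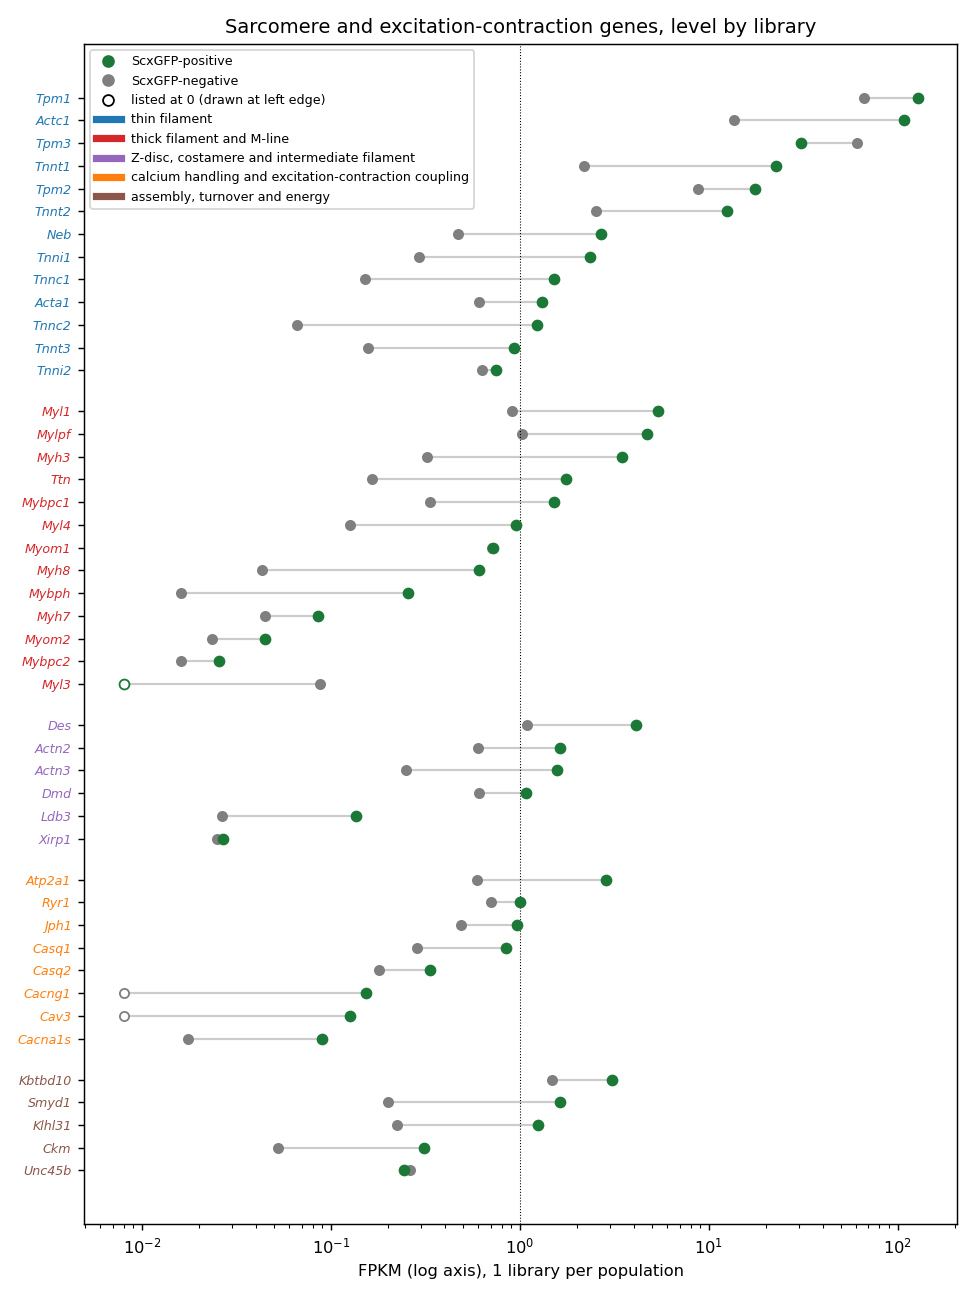
Level of each of the 45 genes in the ScxGFP-positive (green) and ScxGFP-negative (grey) library, as deposited FPKM on a log axis, grouped by structural class (label colour) and ordered by level in the positive library. The green point lies to the right of the grey one for 42 genes. Open circles at the left edge mark the 3 genes listed at 0 in one of the libraries, *Myl3* in positive cells and *Cacng1* and *Cav3* in negative cells.

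To keep genes at very low levels from dominating, differences were also put on a log2(FPKM + 1) scale, which understates the change of low genes. On it, 15 of 45 genes were at least 2-fold higher in positive cells, against 2.21% of all 22090 genes. At least 2-fold lower were 0, against 5.46%. A gene can pass as higher only with at least 1 FPKM in positive cells, which 25 of the 45 had. It can pass as lower only with at least 1 FPKM in negative cells, which 9 had, so most members could not be called lower. The median log2 ratio of all 45 members was 0.72, and that of all genes −0.04. It was 1.12 for the 25 members with at least 1 FPKM in a library, against −0.27 for all 12096 such genes, a member value that the filter itself raises because 16 of the 25 passed through the positive library alone. At 4-fold, 2 of 45 passed, *Actc1* and *Tnnt1*, against 0.751% of all genes. *Actn3* (1.05) was the lowest ratio past 2-fold and *Tpm1* (0.93) the highest short of it.

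**Figure D2:**
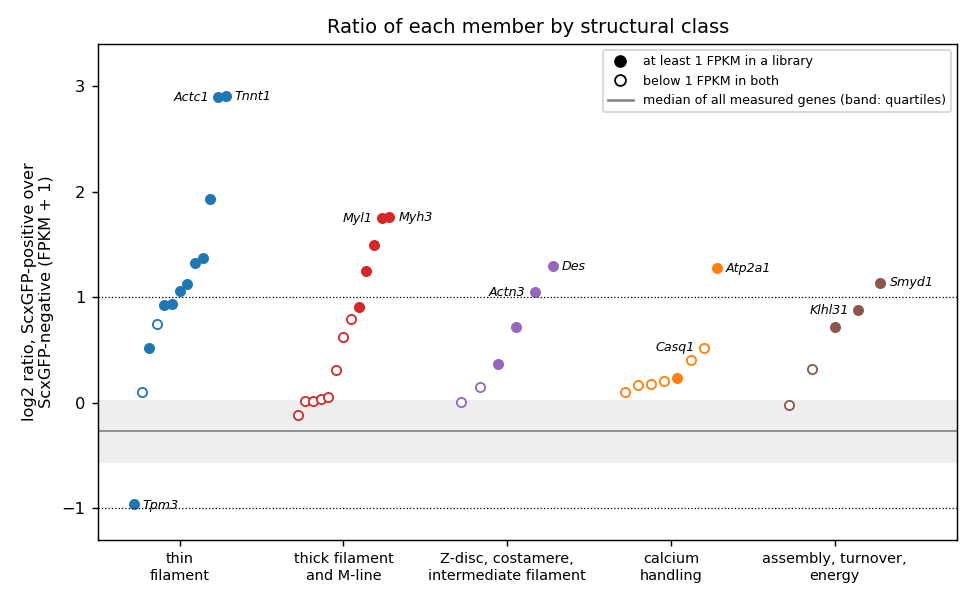
Log2 ratio, ScxGFP-positive over ScxGFP-negative on FPKM + 1, of each gene by structural class; filled points have at least 1 FPKM in a library, and dotted lines mark 2-fold. The grey line and band are the median (−0.27) and quartiles (−0.56 and 0.02) of the 12096 measured genes. *Tnnt1* and *Actc1* lie highest (2.90 each), and *Tpm3* lies below the band at −0.96.

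Thin filament genes carried the highest levels and the widest spread. *Actc1* encodes cardiac alpha-actin, the main striated actin of embryonic muscle (mm9 chromosome 2, 113873025 to 113878547). Its level was 107 FPKM in positive cells, against 13.6 in negative cells, a ratio of 7.92, and both values rest on much sequence, about 341203 aligned bases in positive and 45033 in negative cells. *Acta1*, which encodes the skeletal alpha-actin of mature fibres (chromosome 8, 126415667 to 126418636), was at 1.31 FPKM in positive and 0.608 in negative cells, a ratio of 2.15. *Actc1* thus made up 98.8% of the FPKM of this pair in positive cells, against 95.7% in negative cells. As a measure of how far reads of these near-identical proteins could be mixed, 0.756% of the 31-base words of *Actc1* transcripts and 4.11% of those of *Acta1* occur in transcripts of another gene of the GENCODE M21 annotation.

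The 250 bases upstream of the annotated start are shown for this actin pair and for a pair of thick filament genes described below, since short motifs in such stretches are known to bind the factors that switch on muscle genes. Sequences are from RefSeq on GRCm38.p6, another build than the mm9 of the expression tables; each runs 5′ to 3′ toward the start, and capitals mark matches on either strand to the E-box CAGCTG, the CArG box bound by serum response factor, or the MEF2 motif.
Actc1, chr2:114052876-114053125, minus strand: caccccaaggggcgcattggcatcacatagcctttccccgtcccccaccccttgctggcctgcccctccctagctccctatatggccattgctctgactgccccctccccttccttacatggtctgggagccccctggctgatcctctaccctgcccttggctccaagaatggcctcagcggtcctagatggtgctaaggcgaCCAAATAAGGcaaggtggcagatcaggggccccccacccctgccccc
Acta1, chr8:123894776-123895025, minus strand: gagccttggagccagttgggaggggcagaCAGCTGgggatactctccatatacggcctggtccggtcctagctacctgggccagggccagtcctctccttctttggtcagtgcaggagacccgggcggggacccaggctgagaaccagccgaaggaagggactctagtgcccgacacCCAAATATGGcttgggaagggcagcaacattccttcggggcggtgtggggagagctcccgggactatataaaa
Ttn, chr2:76982548-76982797, minus strand: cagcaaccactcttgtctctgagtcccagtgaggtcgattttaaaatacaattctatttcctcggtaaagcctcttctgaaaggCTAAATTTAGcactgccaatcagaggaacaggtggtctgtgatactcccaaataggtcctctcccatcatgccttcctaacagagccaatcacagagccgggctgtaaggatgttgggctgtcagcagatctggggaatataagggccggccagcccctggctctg
Mylpf, chr7:127211358-127211607, plus strand: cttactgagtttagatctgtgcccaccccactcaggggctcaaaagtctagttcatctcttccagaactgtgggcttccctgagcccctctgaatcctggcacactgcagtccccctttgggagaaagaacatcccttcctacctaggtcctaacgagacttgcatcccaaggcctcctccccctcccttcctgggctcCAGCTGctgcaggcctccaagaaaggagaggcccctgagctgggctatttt
Both actin windows hold a CArG box, beginning 47 bases upstream of the start in *Actc1* and 73 in *Acta1*; *Acta1* also has a CAGCTG at 221. The *Ttn* window has a MEF2 match at 166 and the *Mylpf* window a CAGCTG at 51. In the RefSeq promoter table, 37 of 45 members matched, *Kbtbd10* through its current symbol *Klhl41*, with 43 start sites. CAGCTG was in 17 of these 43 windows (39.5%), against 13% of 32851 windows of the same length; it is 1 form of the general E-box CANNTG, which was in 35 windows (81.4%, against 66.2%). A CArG box was in 7 windows (16.3%, against 1.47%), and a MEF2 match in 5 (11.6%, against 1.69%). Windows of the same gene can overlap and hold the same match. By gene, CAGCTG was in 16 of 37, a CArG box in 6 and a MEF2 match in 5. The windows of *Tnnt1*, *Myh3*, *Tnnc1* and *Smyd1* held no CAGCTG, CArG box or MEF2 match. These are matches of letters; no measurement of binding is involved.

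Troponin T, which anchors the complex to tropomyosin, is made by 3 genes, and all were higher in positive cells. *Tnnt1*, the slow skeletal form (chromosome 7, 4456265 to 4467577), stood at 22.8 FPKM in positive cells, against 2.18 in negative cells, a ratio of 10.5. *Tnnt2*, the cardiac form that embryonic muscle also makes, stood at 12.4 FPKM in positive and 2.51 in negative cells (ratio 4.94), and *Tnnt3*, the fast form, at 0.934 in positive and 0.156 in negative cells (ratio 5.99, on about 2213 aligned bases in positive and 371 in negative cells). The order of the levels therefore differed between libraries: *Tnnt1* made up 63.1% of troponin T FPKM in positive cells, against 44.9% in negative cells, and *Tnnt2* 34.3% in positive and 51.8% in negative cells. *Tnnt2* is listed as 10 transcripts of similar length. NM_001130176 was close to 0 in positive cells, against 1.45 FPKM in negative cells, while NM_001130177 was at 8.49 in positive cells against 0.862 in negative cells. The division of reads among such similar transcripts is an estimate, and the sum is the firmer value.

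The inhibitory subunits did not behave alike. *Tnni1*, the slow troponin I, stood at 2.35 FPKM in positive cells, against 0.292 in negative cells, a ratio of 8.03. *Tnni2*, the fast form, was nearly level at 0.749 in positive and 0.633 in negative cells, a ratio of 1.18. The slow form was thus 75.8% of the summed FPKM of *Tnni1* and *Tnni2* in positive cells, against 31.6% in negative cells. The negative values rest on only about 725 and 1008 aligned bases. *Tnni3*, the cardiac form outside the list, was left out of this sum. Its FPKM was 1.47 in negative cells, above both genes, and 0.947 in positive cells, below *Tnni1*. Both calcium-binding troponin C genes were higher in positive cells. *Tnnc1*, the slow and cardiac form, was at 1.51 FPKM in positive cells against 0.152 in negative cells (ratio 9.94), and *Tnnc2*, the fast form, at 1.23 in positive and 0.0663 in negative cells (ratio 18.5). Both ratios are poorly bounded, since the negative values rest on about 255 aligned bases for *Tnnc1* and 110 for *Tnnc2*. In GENCODE M21, 67.6% of the 31-base words of *Tnnc2* also occur in annotated transcripts of its neighbour *Ube2c*. The expression tables use RefSeq transcripts instead, where no other symbol overlaps *Tnnc2*, so any mixing of reads was not measured.

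Several troponin genes lie side by side, and neighbours could differ widely. On chromosome 1, *Tnni1* ends 25.4 kb from *Tnnt2*, and both were more than 4-fold higher in positive cells by FPKM ratio. On chromosome 7, *Tnni2* and *Tnnt3* lie 54.4 kb apart with ratios of 1.18 and 5.99. The closest neighbours were *Tnnt1* and the cardiac troponin I gene *Tnni3*, 2.3 kb apart on chromosome 7. The FPKM ratio of *Tnnt1* was 10.5, whereas *Tnni3* stood at 0.947 FPKM in positive cells against 1.47 in negative cells.

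Tropomyosins are made by most cell types as well as by muscle. Their FPKM ratios were below those of the other thin filament genes except *Tnni2* (1.18), with *Acta1* (2.15) close above. *Tpm1* was the most abundant gene of the list in both libraries, at 128 FPKM in positive cells, against 66.4 in negative cells, a ratio of 1.92. *Tpm2* stood at 17.6 FPKM in positive and 8.79 in negative cells, a ratio of 2.01. *Tpm3* went the other way, at 30.9 FPKM in positive cells against 61.1 in negative cells, a ratio of 0.506 that was 0.624 and 0.689 under the rescalings. *Tpm3* was 17.5% of tropomyosin FPKM in positive cells, against 44.8% in negative cells. It is listed as 1 transcript, so its muscle and other products were not separated, and 46.0% of its 31-base words occur in other annotated genes, nearly all in the copy *Tpm3-rs7*. Without the tropomyosins, the list summed to 194 FPKM in positive cells, against 31.5 in negative cells, 6.17 times as much. Without *Actc1* as well, the sums were 87.0 in positive and 18.0 in negative cells, 4.84 times.

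*Tpm1* is read from 2 groups of start sites, and their estimated levels differed. The transcripts overlap, so the division of reads among them, and with it each sum by start site, is an estimate. The sum over the whole gene is the firmer value. The upstream start is known for long tropomyosins, which include the striated and smooth muscle forms, and the internal start for short forms of the general cytoskeleton. Of its 10 listed transcripts, 6 begin at the upstream end of the gene (chromosome 9, at 66897020) and 4 begin inside it (at 66891678). Upstream-start transcripts summed to 105 FPKM in positive cells, against 42.1 in negative cells, a ratio of 2.48. Internal-start transcripts were nearly level, at 23.1 FPKM in positive and 24.2 in negative cells, with a ratio of 0.951 that was 1.17 and 1.30 under the rescalings. The upstream start accounted for 81.9% of *Tpm1* FPKM in positive cells, against 63.5% in negative cells. Within the internal-start group, NM_001164254 stood at 20.2 FPKM in positive cells, against 2.46 in negative cells, while NM_001164252 and NM_001164253 were close to 0 in positive cells and had 12.2 and 7.36 in negative cells. The upstream-start group was uneven too: NM_024427 stood at 42.8 FPKM in positive cells against 9.31 in negative cells, and NM_001164251, from the same start, at 2.06 in positive and 15.5 in negative cells.

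**Figure D3:**
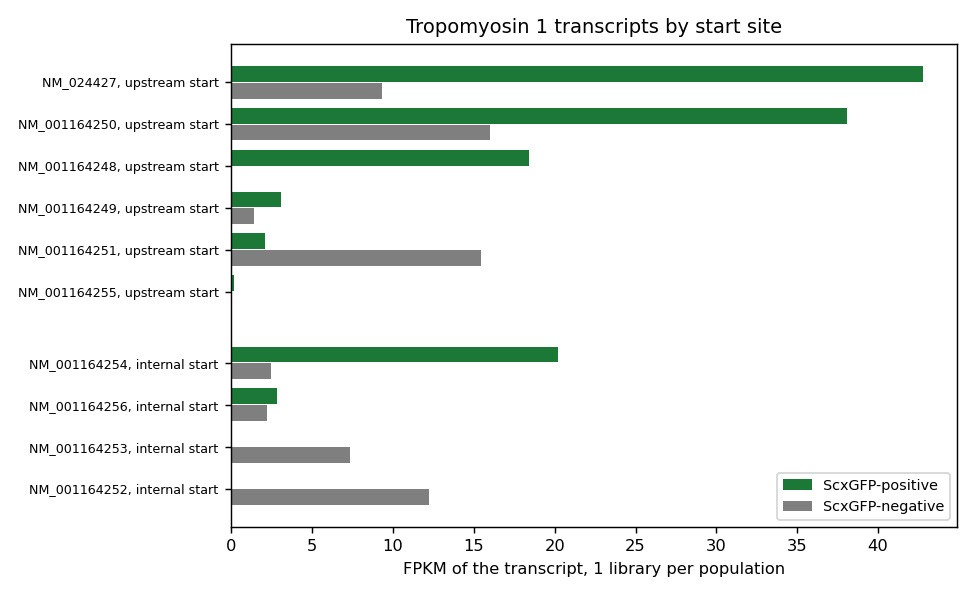
Estimated FPKM of the 10 listed *Tpm1* transcripts in the ScxGFP-positive (green) and ScxGFP-negative (grey) library. Transcripts from the upstream start are above those from the internal start. The tallest green bars, NM_024427 and NM_001164250 at 42.8 and 38.1 FPKM, come from the upstream start; from the internal start, NM_001164254 has 20.2 FPKM in positive cells, against 2.46 in negative cells, and NM_001164252 has 0.0204 in positive cells, against 12.2 in negative cells.

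*Neb* encodes nebulin, the giant ruler of the thin filament. It stood at 2.69 FPKM in positive cells, against 0.469 in negative cells, a ratio of 5.73 that rests on about 137962 aligned bases in positive and 25196 in negative cells. Of the 13 thin filament genes 7 were at least 2-fold higher on the FPKM + 1 scale, and 12 were higher by any amount. Here and for the classes below, the shares of all genes were 2.21% and 32.6%. A gene below 1 FPKM in both libraries cannot reach 2-fold on that scale, which held for 2 of the 13.

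In the thick filament, the embryonic myosin heavy chain gene *Myh3* (chromosome 11, 66891802 to 66915793) led its family. It stood at 3.48 FPKM in positive cells, against 0.324 in negative cells, a ratio of 10.8. *Myh8*, the perinatal form 174.8 kb away, stood at 0.604 in positive and 0.0430 in negative cells, and *Myh7*, the slow and cardiac form, at 0.0849 in positive and 0.0448 in negative cells. *Myh3* thus made up 83.5% of the FPKM of these 3 genes in positive cells, against 78.7% in negative cells, with *Myh8* at 14.5% in positive and 10.5% in negative cells. The adult fast myosin genes *Myh1*, *Myh2* and *Myh4*, outside the list, stood at 0.138, 0.0324 and 0.0304 FPKM in positive cells and were listed at 0 in negative cells. Myosin heavy chains are alike in sequence, and 25.4% of the 31-base words of *Myh8* and 37.1% of those of *Myh7* occur in other genes, so the values of the low members are uncertain.

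The essential light chain gene *Myl1* stood at 5.40 FPKM in positive cells, against 0.905 in negative cells, and the fast regulatory light chain gene *Mylpf* at 4.72 in positive and 1.03 in negative cells, with ratios of 5.97 and 4.59. *Myl1* has a short and a long listed transcript. NM_001113387 was at 4.85 FPKM in positive cells against 0.730 in negative cells, and NM_021285 at 0.549 in positive and 0.175 in negative cells. *Myl4*, the embryonic and atrial light chain, was at 0.953 in positive and 0.126 in negative cells, while *Myl3*, the slow and ventricular one, was listed at 0 in positive cells, against 0.0871 in negative cells, on about 187 aligned bases.

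*Ttn* encodes titin, which spans from Z-disc to M-line (chromosome 2, 76542041 to 76820604). Its level was low per kilobase but, over its great length, among the best measured of the list: 1.76 FPKM on about 406459 aligned bases in positive cells and 0.164 on about 39869 in negative cells. The ratio of 10.7 was close to that of *Myh3*. *Mybpc1*, the slow myosin-binding protein C, stood at 1.51 FPKM in positive cells against 0.335 in negative cells (ratio 4.51), and its fast paralogue *Mybpc2* at 0.0254 in positive and 0.0160 in negative cells. *Mybph*, a related protein, was at 0.257 in positive and 0.0161 in negative cells, and 46.3% of its 31-base words also occur in transcripts of the overlapping gene *Adora1*. The listed M-line genes, *Myom1* and *Myom2*, did not share the high ratios of *Myh3* and *Ttn*, with FPKM ratios of 1.02 and 1.92. This did not hold for *Myom3*, an M-line gene outside the list, whose ratio was 11.6. That ratio comes from low levels, 0.211 FPKM in positive cells against 0.0182 in negative cells. *Myom1*, which encodes myomesin, was at 0.723 FPKM in positive cells against 0.709 in negative cells, and *Myom2* at 0.0449 in positive and 0.0234 in negative cells. The near-equal sums of *Myom1* came from unequal transcript estimates. NM_010867 stood at 0.723 in positive and 0.282 in negative cells, and NM_001083934 at close to 0 in positive cells, against 0.427 in negative cells. These transcripts share both ends, and the division of reads between them is uncertain. Of 13 thick filament and M-line genes 4 were at least 2-fold higher on the FPKM + 1 scale and 12 were higher by any amount. Because 8 of the 13 were below 1 FPKM in both libraries, only the other 5 could reach 2-fold on that scale.

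**Figure D4:**
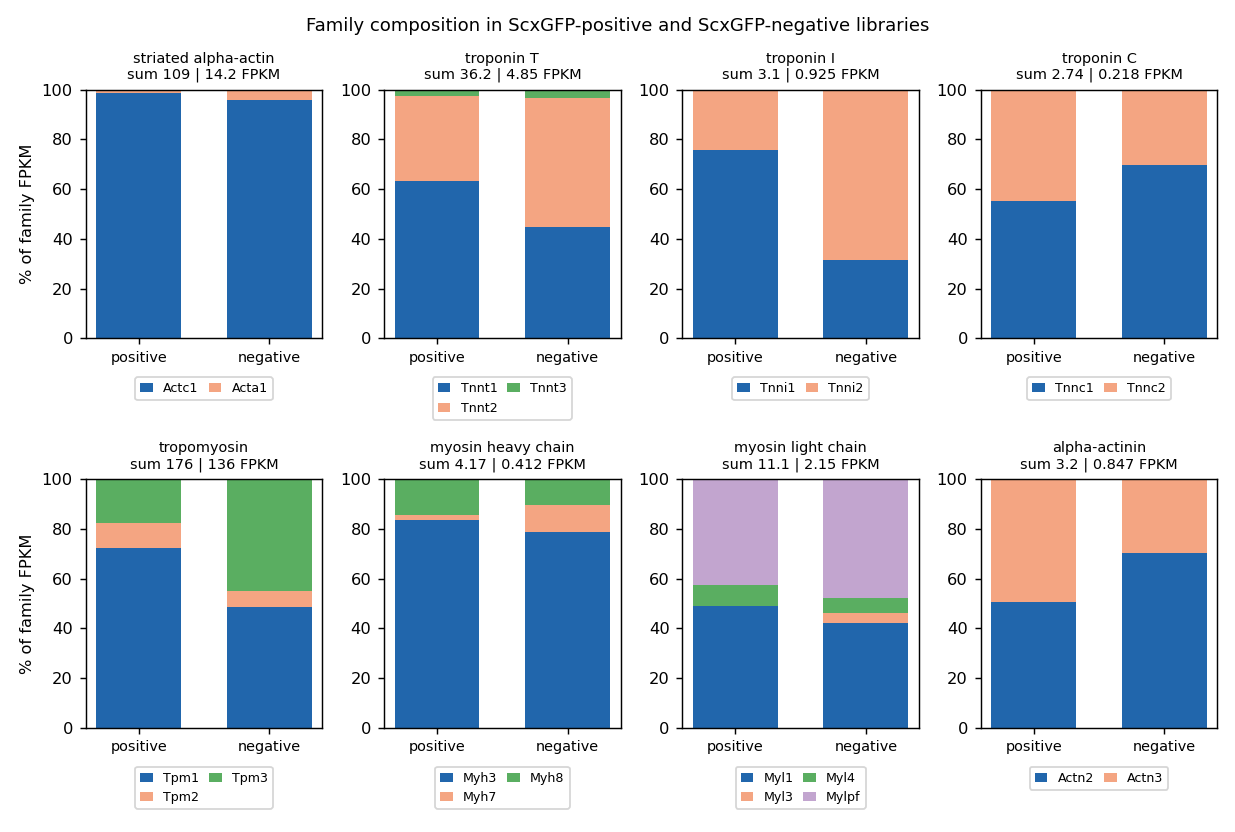
Share of each gene in the summed FPKM of the listed members of its family. Left bars are the ScxGFP-positive and right bars the ScxGFP-negative library, with the sums above each panel. The embryonic forms *Actc1* and *Myh3* lead the listed members in both libraries. Of *Tnni1* and *Tnni2*, *Tnni1* has the larger share in positive cells (75.8%) and *Tnni2* in negative cells (68.4%). *Tnni3*, not in the list, is left out and stood at 0.947 FPKM in positive and 1.47 in negative cells.

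Genes of the Z-disc, its membrane attachments and intermediate filaments were all higher in positive cells, 6 of 6 by FPKM and 2 of 6 by at least 2-fold on the FPKM + 1 scale. Below 1 FPKM in both libraries were 2 of the 6, which could not reach 2-fold on that scale. *Des* encodes desmin, the muscle intermediate filament protein (chromosome 1, 75356919 to 75364290), and stood at 4.13 FPKM in positive cells, against 1.09 in negative cells, a ratio of 3.78. The alpha-actinins cross-link thin filaments at the Z-disc. *Actn3*, the fast-fibre form, was at 1.58 FPKM in positive and 0.250 in negative cells (ratio 6.31) and *Actn2*, the general striated form, at 1.62 in positive and 0.596 in negative cells (ratio 2.72), so that *Actn2* was 50.6% of the pair in positive and 70.4% in negative cells. *Dmd*, which encodes dystrophin and is known to be made in non-muscle forms too, stood at 1.07 in positive and 0.605 in negative cells, a ratio of 1.77. *Ldb3*, encoding a PDZ and LIM protein of the Z-disc, was at 0.136 in positive and 0.0266 in negative cells, and *Xirp1*, encoding an actin-binding protein of muscle attachments, was level at 0.0267 in positive and 0.0250 in negative cells.

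Calcium-handling genes summed to 6.36 FPKM in positive cells, against 2.26 in negative cells, close to the 6.51 in positive and 2.21 in negative cells of the assembly class. They had the lowest median log2 ratio over all members of a class, 0.22. Thin filament genes had 1.06, thick filament and M-line genes 0.62, Z-disc genes 0.54 and assembly genes 0.72. That scale understates changes of low genes, and 6 of the 8 calcium-handling genes were below 1 FPKM in both libraries. The fast-fibre calcium pump gene *Atp2a1* (chromosome 7, 133589374 to 133606587), whose product refills the sarcoplasmic reticulum, had the highest log2 ratio of the class. It stood at 2.85 FPKM in positive cells, against 0.590 in negative cells, an FPKM ratio of 4.83. Its general paralogue *Atp2a2*, outside the list, stood at 23.6 FPKM in positive and 31.5 in negative cells. *Atp2a1* made up 10.8% of the FPKM of these pumps in positive cells, against 1.84% in negative cells. *Ryr1*, the calcium release channel, was at 1.001 FPKM in positive and 0.700 in negative cells, a ratio of 1.43 on about 35129 aligned bases in positive and 25669 in negative cells. *Jph1*, which ties the reticulum to the membrane, was at 0.967 in positive and 0.489 in negative cells, a ratio of 1.98.

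The voltage sensor of excitation-contraction coupling was barely detected. *Cacna1s*, its pore-forming subunit, stood at 0.0892 FPKM in positive cells, against 0.0174 in negative cells, a ratio of 5.12. The accessory subunit gene *Cacng1* was at 0.153 in positive cells and listed at 0 in negative cells. *Cav3*, the muscle caveolin gene, was at 0.126 in positive cells and listed at 0 in negative cells. The calsequestrins, which store calcium in the reticulum, were at 0.842 FPKM in positive and 0.285 in negative cells for the fast form *Casq1* and at 0.334 in positive and 0.179 in negative cells for the cardiac form *Casq2*, with ratios of 2.96 and 1.87. All 8 genes of the class were higher by FPKM in positive cells and 1, *Atp2a1*, was at least 2-fold higher on the FPKM + 1 scale. The values of *Cacna1s*, *Cacng1* and *Cav3* in positive cells rest on about 1260, 419 and 332 aligned bases.

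Of 5 genes of assembly, turnover and energy, 4 were higher by FPKM and 1 by at least 2-fold on the FPKM + 1 scale. Below 1 FPKM in both libraries were 2 of the 5, which could not reach 2-fold on that scale. *Smyd1*, a methyltransferase and myosin chaperone partner needed for sarcomere assembly, stood at 1.64 FPKM in positive cells, against 0.199 in negative cells, a ratio of 8.21. The other myosin chaperone gene, *Unc45b*, was level at 0.243 in positive and 0.262 in negative cells. *Klhl31*, a Kelch protein of developing muscle, was at 1.24 in positive and 0.223 in negative cells (ratio 5.58), and *Kbtbd10*, another Kelch protein gene, at 3.08 in positive and 1.48 in negative cells (ratio 2.08). *Ckm*, the muscle creatine kinase of mature fibres, was at 0.311 in positive and 0.0521 in negative cells.

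**Figure D5:**
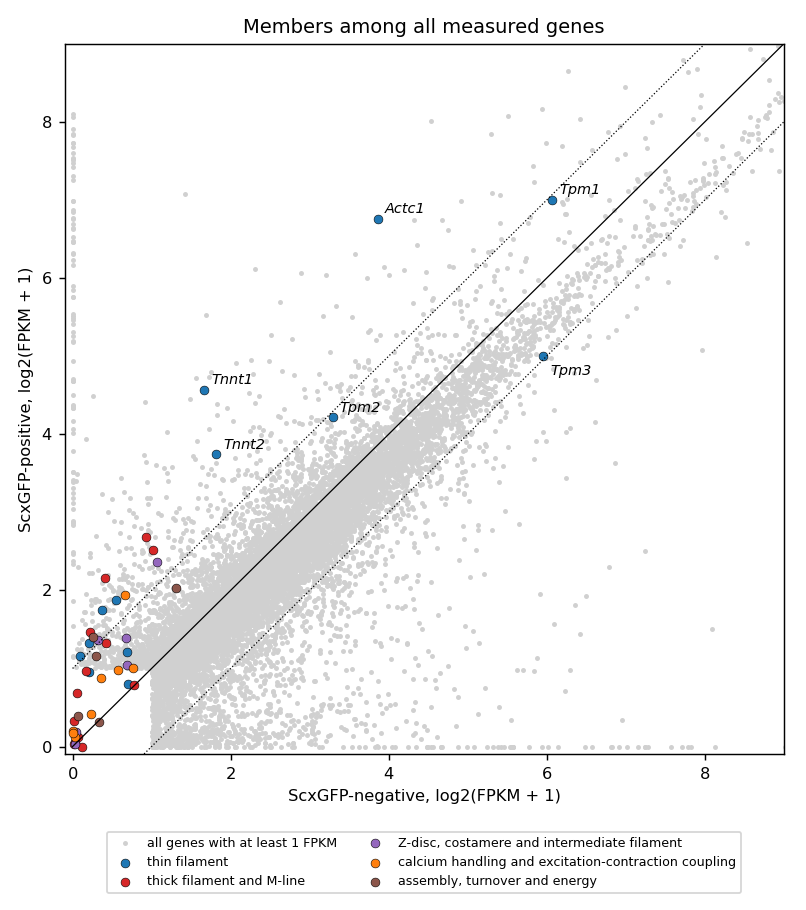
Level in the ScxGFP-positive against the ScxGFP-negative library, both as log2(FPKM + 1), for all 12096 genes with at least 1 FPKM in a library (grey) and the 45 sarcomere and excitation-contraction genes (coloured by class); the solid line marks equality, the dotted lines 2-fold, and 50 genes lie beyond the axes. *Actc1*, *Tnnt1* and *Tnnt2* lie well above the upper dotted line, *Tpm1* and *Tpm2* just below it, and *Tpm3* just above the lower one, while most other members lie near the origin.

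Measured against each other by FPKM ratio, 23 of the 42 members above 0 in both libraries had a ratio of 4 or more. Another 6 lay from 2 to 4, 11 from 1 to 2 and 2 below 1. All genes were not counted at these cuts, but the upper quartile of the 16268 genes above 0 in both was 1.10. Among members with at least 1 FPKM in a library, the highest ratio was that of *Tnnc2* (18.5). The next belonged to genes of different structures, *Myh3* (10.8), *Ttn* (10.7), *Tnnt1* (10.5) and *Tnnc1* (9.94). The ratios of *Smyd1* (8.21), *Tnni1* (8.03) and *Actc1* (7.92) lay just under these. Those of *Tnnc1* and *Tnnc2* are poorly bounded, as stated above. Of the genes just named, only *Tnnt1* and *Actc1* had at least 1 FPKM in negative cells too. *Mybph* and *Myh8*, under 1 FPKM in both libraries, had ratios above that of *Myh3*, so this order depends on the filter. The 10 genes of the myogenic list above 0 in both libraries had a median FPKM ratio of 5.61, between 0.148 for *Pax3* and 13.7 for *Musk*, a receptor kinase of the neuromuscular junction; *Myog* had 5.91 and *Tmem8c* 9.10. Members with at least 1 FPKM in a library and a ratio under 2 were *Tpm1*, *Dmd*, *Ryr1* and *Tpm3*. For the 25 genes other than tropomyosins with at least 1000 aligned bases in both libraries, the median ratio was 4.51 (quartiles 1.98 and 5.97). The 20 genes under 1 FPKM in both libraries lay in the same direction, with 18 higher in positive cells and 2 lower, against 46.1% higher among all 5810 genes above 0 and under 1 FPKM in both.

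Other known genes of the sarcomere, the triad and the muscle membrane were a list of 81, chosen with these data known. By FPKM alone 52 of the 81 were higher in positive cells, 25 were lower and 4 were at 0 in both libraries, where 32.6% of all genes were higher. On the FPKM + 1 scale 3 of 81 were at least 2-fold higher, against 2.21% of all genes, and 4 of 81 at least 2-fold lower, against 5.46%. The highest ratios on that scale were those of *Flnc*, encoding the muscle filamin (10.8 FPKM in positive cells against 1.23 in negative cells), *Sgcd*, encoding delta-sarcoglycan (6.92 in positive and 1.11 in negative cells), and *Cacna2d1*, encoding a calcium channel subunit (3.32 in positive and 1.09 in negative cells). The lowest on it were those of *Smpx*, a small muscle protein gene (0.0346 in positive and 1.57 in negative cells), *Atp2a3*, a calcium pump gene of non-muscle cells (0.0123 in positive and 1.48 in negative cells), and *Nebl*, encoding the nebulin relative nebulette (1.83 in positive and 5.07 in negative cells). By FPKM ratio the highest were genes under 1 FPKM in both libraries, *Myom3* (11.6), *Myoz2* (10.8) and *Myh13* (9.67), named after their values were seen. Many genes of the list are also made outside muscle. The adult genes *Ckmt2*, *Trim54*, *Xirp2* and *Mylk2*, named after their values were seen, were listed at 0 in both libraries.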

How the data were processed

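RNA was measured in 1 library each of ScxGFP-positive and ScxGFP-negative cells, grouped by the labels' cell population. The labels' protocols name the RNeasy micro kit for RNA and the NuGEN Ovation RNA-Seq v2 chemistry for cDNA; that chemistry marks no strand, so reads of overlapping genes are not separated. The submitters' processing notes list TopHat 1.4.1, Bowtie 0.12.7 and build mm9, while no source used here gives a version for the abundance estimate. For 28107 RefSeq transcripts the deposited tables hold, per the file headers, the authors' FPKM, coverage (a signal of aligned depth) and length. Length equalled end minus start in 3284 rows and end minus start plus 1 in 0, so 1 was added to each start.

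From these, FPKM was summed per symbol, with a symbol missing where a row failed (5 rows in the positive and 6 in the negative table, 0 of them members). Log2 ratios used a pseudocount of 1, a gene counted as measured at 1 FPKM or more in a library, and 2-fold was the threshold of description. Aligned bases are coverage times length. Read counts are not in the files and no interval could be given. The scripts were tested on simulated data. All 45 members are named, by rule, and of other lists those with the extreme ratios or highest levels. The members and lists were chosen with earlier results of these data known. Sequence sharing was counted as 31-base words, on both strands, against GENCODE M21 transcripts. Python 3.11.15, pandas 2.3.3 and matplotlib 3.10.9 were used. Alternatives were other pseudocounts (0.1 and 5), scalings, filters the largest transcript in place of the sum and, added after seeing the data, equal FPKM sums.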

Additional observations from a re-analysis of the deposited data

How the results depend on the processing

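No paired analysis was possible because each group has 1 library, and for the same reason no replicate could be left out. The direction of the list held under 7 alternatives and under 1 more chosen after seeing the data, equal sums on the FPKM scale. The median log2 ratio of members with at least 1 FPKM, 1.12, was 2.10 with a pseudocount of 0.1 and 0.39 with 5, 1.31 with the median ratio scaled to 1, 2.34 with TPM, 1.41 with equal sums on the FPKM scale, 0.72 without a filter, 1.75 at 5 FPKM or more and 1.14 with the largest transcript. Of the 25 members with at least 1 FPKM in a library, 15 were at least 2-fold higher. That count became 3 with a pseudocount of 5, 23 with TPM and 21 with equal sums. At 5 FPKM or more, 4 of the 7 members left passed. The share of all genes past 2-fold was not counted under these settings. TPM values are 6.18 times the FPKM in positive and 4.54 times in negative cells, so a pseudocount of 1 also weighs less there, which equal sums on the FPKM scale avoids. With a pseudocount of 5 the counts were 3 for the thin filament and 0 for each of the other 4 classes, and 1 for the 81 other sarcomere genes. With TPM, among genes with at least 1 FPKM, the Z-disc count was 4 of 4 and the assembly count 3 of 3. For the other sarcomere genes it was 8 of 28. With equal sums these counts were 3 of 4, 3 of 3 and 6 of 28. The assembly count, 1, was also 3 with a pseudocount of 0.1 and 2 with the median ratio scaled to 1. At 5 FPKM or more the thin filament count was 3 and the thick filament count 1, and the other classes had no gene left. The pseudocount changes counts because most members lie at a few FPKM or less, and no member past 2-fold changed sign. The median of all genes, −0.27, was −0.03 with the median ratio scaled to 1 and 0.10 with TPM.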
